A study of Mus musculus with 8 samples.

Results

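The subject is the set of T cell receptor and immunoglobulin gene segments that were listed with a value in cultured mouse lung group 2 innate lymphoid cells (ILC2s). Members were the rows whose gene class was a T cell receptor or immunoglobulin segment and whose symbol was that of a V, D, J or C segment of such a locus. The rule took 77 of the 22075 genes. Another 3 rows of such a class had symbols outside the rule (Igha, Gm16602 and B230359F08Rik). By locus, 23 members belonged to T cell receptor beta (Trb), 21 to the immunoglobulin heavy chain (Igh), 13 to T cell receptor gamma (Trg), 11 to alpha (Tra), 5 to delta (Trd) and 4 to immunoglobulin kappa (Igk). By class, 44 were V, 2 were D, 20 were J and 11 were C segments. GENCODE M21 annotates 702 such genes in the mouse genome, so the members are the segments with a row in this table and not the whole loci.

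T cells and B cells assemble their antigen receptors by cutting and rejoining V, D and J segments of the DNA, after which the joined exon is spliced to a constant (C) segment. Before and without that joining, promoters inside the loci can start germline (sterile) transcripts that run from a D or J region, or from upstream of a C segment, into the C exons. ILC2s are lymphocytes that make type 2 cytokines and carry no antigen receptor at their surface. They develop with many of the transcription factors that T cells use.

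All cells came from the lungs of C57BL/6 mice given papain briefly, and were grown for about 5 days in IL-2 at 10 ng/ml. Both genotypes carried floxed Stat3 alleles. WT cells (Stat3fl/fl) had no Cre, and STAT3-KO cells (VavicreStat3fl/fl) also had Vav-iCre, a recombinase expressed in blood cells, so loss of STAT3 and presence of Cre cannot be told apart. IL-33, an alarm cytokine that activates ILC2s, was added at 10 ng/ml for another 2 days to cells of either genotype (the groups called WT with IL-33 and, for the knockout, STAT3-KO with IL-33), and the labels do not describe what the WT control and STAT3-KO control groups received over those days. Each of the 4 groups had 2 libraries. The labels do not say whether these came from separate mice or cultures, so p-values measure the spread between these libraries, which may be technical.

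Values were FPKM, the fragments of a gene divided by its length in kilobases and by the sequencing depth. The libraries held 15843670 to 19905792 fragments, recovered from the steps of the values, and fragment numbers below come from the same steps and cover counting error only. On the fragment scale, an alternative, the log was taken of fragments scaled to the median depth instead of FPKM, over genes with at least 10 fragments in at least 2 libraries. In bulk RNA, fewer cells of a type and less RNA per cell cannot be told apart. Stat3 itself was at 41.7 and 50.7 FPKM in WT control, 15.3 and 16.0 in STAT3-KO control, 49.0 and 55.3 in WT with IL-33, and 8.03 and 9.69 in STAT3-KO with IL-33. All 12 of the ILC2 markers examined exceeded 1 FPKM in at least 1 library, though not in every library. Il17rb was at a mean of 30.5 FPKM in WT control and at 0.232 and 0.471 in STAT3-KO with IL-33. The list summed to 2820 to 2930 FPKM in WT control and 2740 in STAT3-KO control. With IL-33 it summed to 8580 to 9170 in WT and 3020 to 3410 in STAT3-KO. Of 10 T cell markers, 9 were at or below 1 FPKM in every library, with Cd3g the exception.

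The results on the beta locus turn on its D and J segments, which lie in 2 clusters, each followed by its own constant gene. Trbd1 and 7 of the 12 J members, taken from both clusters because their values are described below, are printed here, 5′ to 3′, from GENCODE M21 on GRCm38, with capitals marking the core, GG followed by NNNN and GGNAC (N is any base), which codes for the glycine-X-glycine-threonine turn of a J segment. All lie on the plus strand of chromosome 6, from Trbd1 at chr6:41533201-41533212 through Trbj1-1 at chr6:41533864-41533911 and Trbj1-7 at chr6:41535642-41535687 to Trbj2-7 at chr6:41543810-41543856.
Trbd1: gggacagggggc
Trbj1-1: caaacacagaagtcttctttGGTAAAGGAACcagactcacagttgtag
Trbj1-2: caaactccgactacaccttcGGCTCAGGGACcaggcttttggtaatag
Trbj1-4: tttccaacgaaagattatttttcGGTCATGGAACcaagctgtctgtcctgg
Trbj1-7: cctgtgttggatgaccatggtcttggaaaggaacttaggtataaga
Trbj2-1: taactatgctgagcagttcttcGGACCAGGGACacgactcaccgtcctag
Trbj2-3: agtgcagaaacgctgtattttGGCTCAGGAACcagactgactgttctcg
Trbj2-7: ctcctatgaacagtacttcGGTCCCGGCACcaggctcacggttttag
The core was searched on both strands and stood on the coding strand of 69.1% of the 94 annotated mouse J segments and of 64.3% of the 14 in the beta locus. Among the beta J members, Trbj1-3, Trbj1-6, Trbj1-7, Trbj2-2 and Trbj2-6 held no match, and Trbj2-6 is annotated as a pseudogene. A match is a description of the letters only.

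The gamma locus holds 4 constant genes on chromosome 13, and their first 60 bases are shown because their near identity limits how fragments can be assigned among them. Capitals mark bases that differ from Tcrg-C1.
Tcrg-C1: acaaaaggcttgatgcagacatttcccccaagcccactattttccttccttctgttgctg
Tcrg-C2: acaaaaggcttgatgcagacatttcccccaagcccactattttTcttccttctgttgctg
Tcrg-C3: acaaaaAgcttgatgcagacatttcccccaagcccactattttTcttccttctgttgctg
Tcrg-C4: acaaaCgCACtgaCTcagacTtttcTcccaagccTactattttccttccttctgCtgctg
Over the aligned transcripts Tcrg-C1 was 96.1% identical to Tcrg-C2, 97.2% to Tcrg-C3 and 74.8% to Tcrg-C4. Words of 50 bases found in another gene made up 34.2% of Tcrg-C1, 25.4% of Tcrg-C2 and 39.5% of Tcrg-C3, and 0% of Tcrg-C4. The beta constant genes were 99.7% identical over their first 360 bases. Such words made up 40.5% of Trbc1 and 44.0% of Trbc2, so fragments from the shared part cannot be assigned to either by sequence. Tcrg-C4, Ighm, Igkc and Trdv4 had no such word.

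Constant segments carried almost all of the signal. The members together took 1200 to 1294 fragments per 1000000 in the 4 control libraries, 960 and 963 in WT with IL-33, and 480 and 397 in STAT3-KO with IL-33. A single gene, Tcrg-C4, held 4717 to 14758 fragments in each library. By contrast, V members were close to empty. Apart from Trdv4 and Trgv2, none of the other 42 V members exceeded 19 fragments in any library. Of all classes, 32 members had at most 3 fragments in every library. J segments measure 46 to 64 bases and D segments 12 to 14, so that a few fragments give a high FPKM, and their support is given in fragments.

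**Figure D1:**
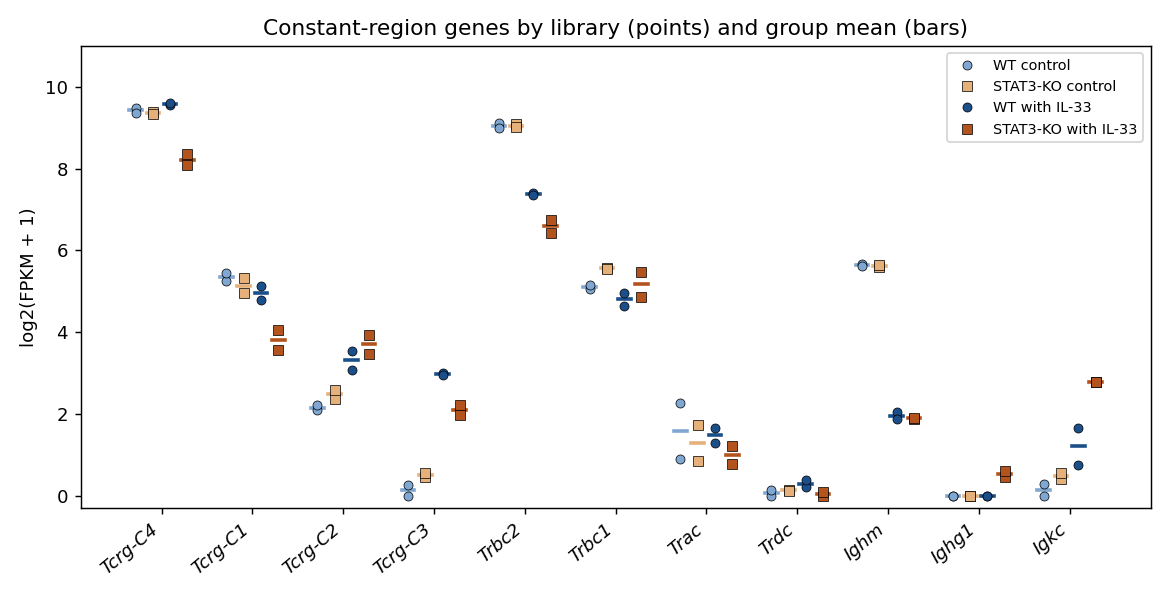
Expression of the 11 constant-region genes on a log2(FPKM + 1) scale, with 1 point per library and a bar at the group mean. Tcrg-C4 and Trbc2 are the most abundant in control, Ighm drops in both IL-33 groups, and Tcrg-C4 is low in the STAT3-KO with IL-33 libraries alone among the 4 groups.

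A gene was tested where it had at least 1 FPKM in at least 2 libraries, which 31 of the 77 members did, and called at an adjusted p under 0.05 (limma on log2(FPKM + 1), Benjamini-Hochberg over all 11877 genes tested). Differences below are on that scale, which understates the change of low genes. With IL-33 in WT, 7 members rose and 9 fell, where 36.1% of all tested genes were called (14.5% higher, 21.6% lower). With IL-33 in STAT3-KO, 3 rose and 16 fell, against 51% of all genes (20.4% higher, 30.6% lower). Between the genotypes in control, 1 member was higher in STAT3-KO and 0 were lower, against 0.463% of genes, while 5 members had an unadjusted p under 0.05. With IL-33, 2 were higher and 6 lower in STAT3-KO, against 32.6% of genes (16.3% higher, 16.4% lower). The IL-33 responses of the genotypes differed for 6 members, all more negative in STAT3-KO, against 15.1% of genes (6.72% higher, 8.43% lower). Over the members tested, the median difference was -0.32 with IL-33 in WT (all genes -0.14), -1.23 in STAT3-KO (all genes -0.18), 0.33 between genotypes in control (all genes 0.02) and -0.48 between them with IL-33 (all genes 0.01). A member that passed the filter only through a group where it was high had to differ, so these counts describe the tested members and no others. Of the tested members, 27 also had at least 10 fragments in at least 2 libraries, and among them 6 rose and 9 fell with IL-33 in WT and 3 rose and 15 fell in STAT3-KO.

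Among the gamma constant genes, Tcrg-C4 changed with IL-33 in STAT3-KO cells and was not called in WT. This gene (chr13:19344558-19352756) was at 719 and 661 FPKM in WT control, 671 and 643 in STAT3-KO control, 753 and 782 in WT with IL-33, and 328 and 269.5 in STAT3-KO with IL-33. The last group lay below the other 6 libraries without overlap. The IL-33 difference was 0.15 ± 0.11 (SE) in WT (adjusted p = 0.291, limma) and -1.14 ± 0.11 in STAT3-KO (adjusted p = 7.52e-05, limma). The responses differed by -1.30 ± 0.15 (adjusted p = 0.0018, limma), and with IL-33 STAT3-KO was lower than WT by -1.37 ± 0.11 (adjusted p = 7.64e-05, limma).

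Tcrg-C1, the constant gene of the cluster that holds Trgj1, followed a similar order at a lower level. It was at 36.8 and 42.8 FPKM in WT control, 38.7 and 30.15 in STAT3-KO control, 34.0 and 26.7 in WT with IL-33, and 15.7 and 10.8 in STAT3-KO with IL-33. The difference with IL-33 was -0.39 ± 0.21 in WT, which was not called (adjusted p = 0.174, limma), and -1.33 ± 0.21 in STAT3-KO (adjusted p = 0.00104, limma). With IL-33 it was lower in STAT3-KO than in WT by -1.15 ± 0.21 (adjusted p = 0.00365, limma). The test of the difference between the responses missed the threshold for Tcrg-C1 (-0.94 ± 0.29, adjusted p = 0.0617, limma).

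The other gamma constant genes, Tcrg-C2 and Tcrg-C3, rose with IL-33 in both genotypes. Tcrg-C3 had 0, 2, 4 and 5 fragments in the control libraries, 90 and 71 in WT with IL-33, and 31 and 42 in STAT3-KO with IL-33. Its FPKM was at most 0.479 in control, 6.96 and 6.71 in WT with IL-33, and 2.93 and 3.64 in STAT3-KO with IL-33, so that the WT cells were the higher. The rise was 2.84 ± 0.20 in WT (adjusted p = 2.97e-05, limma) and 1.59 ± 0.20 in STAT3-KO (adjusted p = 0.000384, limma). The responses differed by -1.26 ± 0.29 (adjusted p = 0.0227, limma), a call that was lost when any 1 library other than WT control 2 or STAT3-KO with IL-33 2 was left out (adjusted p 0.0572 to 0.0799). STAT3-KO with IL-33 was below WT with IL-33 by -0.88 ± 0.20 (adjusted p = 0.0118, limma), which was lost without WT with IL-33 1 or 2 or STAT3-KO with IL-33 1 (adjusted p 0.0578 to 0.0695). Both of these calls were also lost on the fragment scale (adjusted p = 0.14 and 0.346, limma). Tcrg-C2 was at 3.26 and 3.66 FPKM in WT control, 4.16 and 5.05 in STAT3-KO control, 10.7 and 7.46 in WT with IL-33, and 10.1 and 14.2 in STAT3-KO with IL-33. Its rise was 1.16 ± 0.22 in WT (adjusted p = 0.00472, limma) and 1.22 ± 0.22 in STAT3-KO (adjusted p = 0.0024, limma). Together Tcrg-C2 and Tcrg-C3 went from 0.4% to 0.739% of all gamma constant fragments in the control libraries to 1.39% and 1.81% in WT with IL-33 and 3.18% and 5.28% in STAT3-KO with IL-33. Tcrg-C4 still held 91.3% to 95.6% of them in every library.

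Of the gamma J segments, Trgj1 and Trgj4 fell with IL-33 in both genotypes, and Trgj4 is the segment upstream of Tcrg-C4. Trgj4 (chr13:19342152-19342212) had 72 and 119 fragments in WT control, 120 and 71 in STAT3-KO control, 39 and 24 in WT with IL-33, and 23 and 13 in STAT3-KO with IL-33. Control and IL-33 libraries did not overlap. Its change was -1.71 ± 0.36 in WT (adjusted p = 0.00741, limma), a call lost without WT with IL-33 2 (adjusted p = 0.0729), and -2.40 ± 0.36 in STAT3-KO (adjusted p = 0.000907, limma). In WT, then, Trgj4 was called lower while Tcrg-C4, which lies downstream of it on the same strand, was not called. Trgj1 had 23 and 33 fragments in WT control, 23 and 23 in STAT3-KO control, 17 and 10 in WT with IL-33 and 11 and 8 in STAT3-KO with IL-33. It fell by 1.16 ± 0.25 in WT (adjusted p = 0.00768, limma) and by 1.25 ± 0.25 in STAT3-KO (adjusted p = 0.0035, limma), and the WT call was lost without WT with IL-33 2 (adjusted p = 0.0732). Both calls of Trgj1 were lost on the fragment scale (adjusted p = 0.19 and 0.132, limma). The J sequences involved are shown because none of the 4 gamma J segments carries the core printed above.
Trgj1: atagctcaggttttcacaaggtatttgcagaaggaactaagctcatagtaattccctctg
Trgj4: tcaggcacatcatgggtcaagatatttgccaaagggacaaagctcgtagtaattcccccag
Words of 25 bases shared with other gamma J segments made up 55.6% of Trgj1 and 0% of Trgj4. Trgj2 had 0 or 1 fragment in the control libraries and 4, 0, 2 and 2 with IL-33, with differences of 0.54 ± 0.61 in WT and 1.57 ± 0.61 in STAT3-KO that were not called (adjusted p = 0.51 and 0.059, limma), and Trgj3, with 1 fragment in 1 library, was not tested.

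Trgv2, a V segment near Trgj4 and Tcrg-C4 on the opposite strand, was the best supported of the gamma V members. It had 89 and 36 fragments in WT control, 39 and 32 in STAT3-KO control, 80 and 29 in WT with IL-33, and 22 and 16 in STAT3-KO with IL-33. The libraries of each WT group differed widely, and no comparison was called. V fragments of the gamma members amounted to 0.243% to 0.722% of the gamma V and C fragments together, in every group. These sums leave out Gm16602, a V row outside the rule that lies between Trgv2 and Trgj4. Over the libraries Gm16602 was at 1.48 to 14.3 FPKM, and Trgv2 at 1.83 to 10.8. The shares therefore describe the members and not all V signal of the locus.

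Among the beta constant genes Trbc2 fell with IL-33 in both genotypes, and Trbc1 was not called in any comparison. Trbc2 (chr6:41546730-41548352) was at 549.8 and 508 FPKM in WT control, 545 and 515 in STAT3-KO control, 169.5 and 162 in WT with IL-33, and 106 and 85.1 in STAT3-KO with IL-33. All 4 control libraries lay above all 4 IL-33 libraries, and WT lay above STAT3-KO within the IL-33 libraries. The change was -1.67 ± 0.12 in WT (adjusted p = 2.61e-05, limma) and -2.47 ± 0.12 in STAT3-KO (adjusted p = 2.25e-06, limma). With IL-33, STAT3-KO was lower by -0.80 ± 0.12 (adjusted p = 0.0014, limma). The responses differed by -0.80 ± 0.16 (adjusted p = 0.0151, limma), which was lost without either STAT3-KO control library or either WT with IL-33 library (adjusted p 0.0511 to 0.0647), and with no filter on low values (adjusted p = 0.0531, limma). Testing with no filter also ended the WT calls of Trbj1-1, Trbj2-1, Trbj2-6, Igkc and Igkv14-111 (adjusted p = 0.126, 0.0552, 0.0855, 0.0783 and 0.0841, limma), the STAT3-KO calls of Trbj1-4 and Trbj1-6 (0.0901 and 0.102), those between genotypes of Trbj1-7 with IL-33 and Trbd1 in control (0.127 and 0.0737), and the differences between responses of Trbj1-3 and Tcrg-C3 (0.12 and 0.0643). A pseudocount of 0.1 FPKM ended the WT call of Trbj2-1 (adjusted p = 0.116, limma), those of Trbj1-7 and Tcrg-C3 between genotypes with IL-33 (0.0519 and 0.167) and both of these differences between responses (0.0519 and 0.0535). Median-of-ratios rescaling ended the STAT3-KO calls of Trbj1-4 and Trbj1-6 (adjusted p = 0.0513 and 0.0576, limma).

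Trbc1 (chr6:41538218-41539881) was at 32.2 and 34.7 FPKM in WT control, 46.7 and 45.7 in STAT3-KO control, 30.3 and 24.0 in WT with IL-33, and 43.6 and 28.0 in STAT3-KO with IL-33. Both IL-33 libraries of a genotype lay below its control libraries. STAT3-KO lay above WT in control, while the genotypes overlapped with IL-33. Its IL-33 difference was -0.30 ± 0.20 in WT (adjusted p = 0.266, limma) and -0.39 ± 0.20 in STAT3-KO (adjusted p = 0.13, limma). As a share of Trbc1 and Trbc2 fragments, Trbc1 made up 5.97% to 8.76% in the control libraries, 16.2% and 13.8% in WT with IL-33, and 30.8% and 26.3% in STAT3-KO with IL-33. The 95% Wilson intervals of the shares in control reached no higher than 9.49%, and those in the STAT3-KO with IL-33 libraries began at 24% or above. No test was made of these shares.

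**Figure D2:**
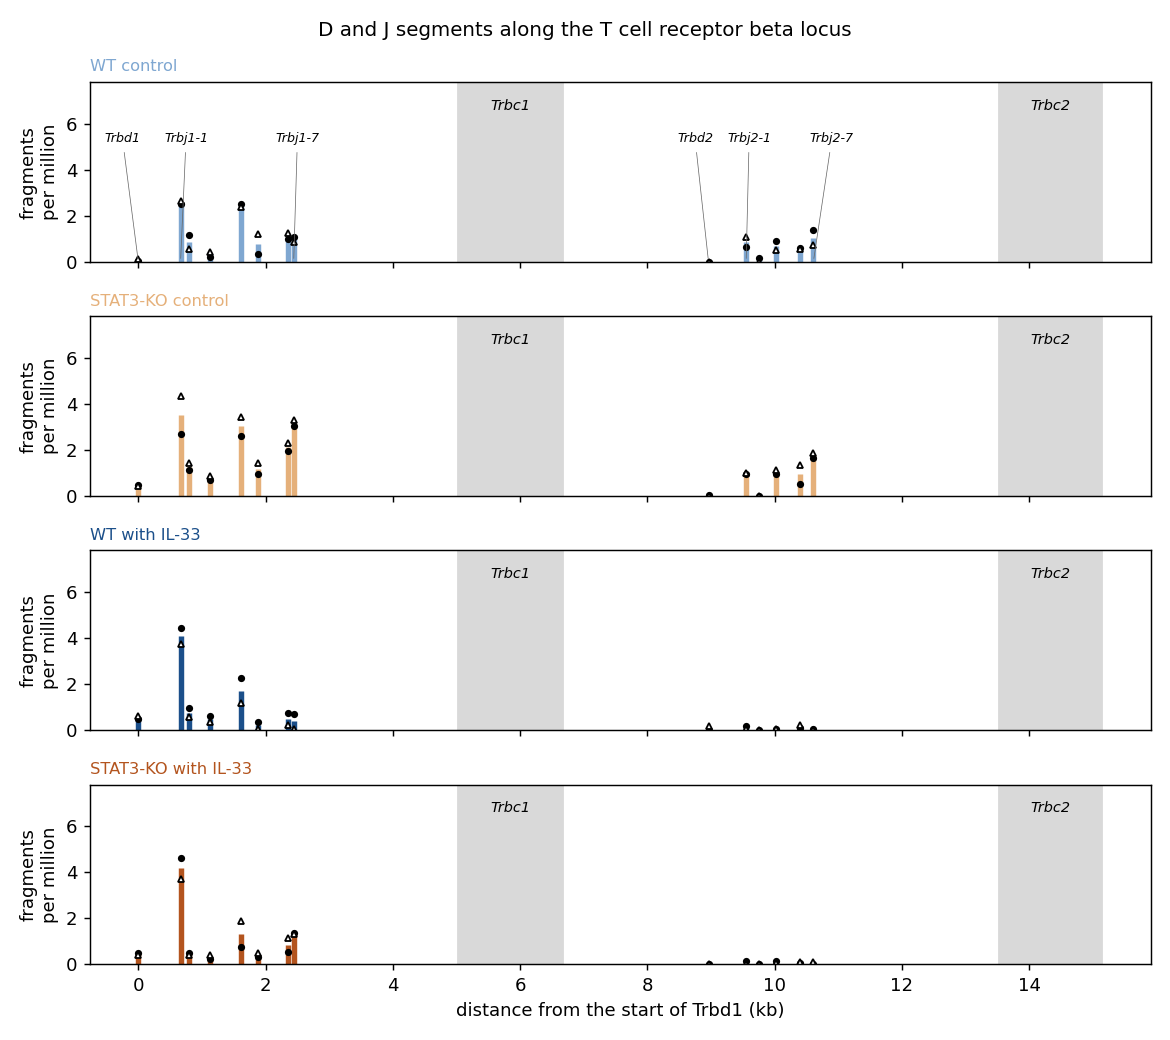
D and J segments along the beta locus, by distance from the start of Trbd1 in kilobases, with fragments per 1000000 on the vertical axis; bars are group means, dots are replicate 1, triangles are replicate 2, and grey bands mark the constant genes, whose values are not drawn. The cluster after Trbd2 is close to 0 in both IL-33 groups, while Trbj1-1 remains.

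The J segments of the second beta cluster, which lie between Trbc1 and Trbc2, fell with IL-33 in both genotypes. Trbj2-7 had 23 and 12 fragments in WT control, 28 and 30 in STAT3-KO control, 1 and 0 in WT with IL-33, and 0 and 2 in STAT3-KO with IL-33. The change of Trbj2-7 was -3.98 ± 0.56 in WT (adjusted p = 0.00103, limma) and -4.39 ± 0.56 in STAT3-KO (adjusted p = 0.000372, limma). Trbj2-1, Trbj2-3 and Trbj2-6 were lower too, with 8 to 22 fragments in control libraries and 0 to 4 with IL-33. For Trbj2-3 the change was -2.79 ± 0.30 in WT and -3.01 ± 0.30 in STAT3-KO (adjusted p = 0.000252 and 0.000101, limma). For Trbj2-1 it was -2.41 ± 0.56 and -3.46 ± 0.56 (adjusted p = 0.0113 and 0.00134, limma), and for Trbj2-6 it was -1.59 ± 0.44 and -2.78 ± 0.44 (adjusted p = 0.0225 and 0.00115, limma). The WT calls of these last 2 segments were lost without a single library (Trbj2-1 without WT control 2 or WT with IL-33 2, adjusted p up to 0.104, and Trbj2-6 without WT control 1 or 2 or WT with IL-33 1, adjusted p up to 0.168), and on the fragment scale (adjusted p = 0.0812 and 0.201, limma). Over the whole second cluster, control libraries had 46 to 86 fragments and IL-33 libraries 5 to 8.

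The first beta cluster, which lies upstream of Trbc1, did not move as a block, as Trbj1-1 stood apart. With IL-33 in STAT3-KO, the differences of its other J segments were -1.20 to -1.45. Those of Trbj1-5 and Trbj1-7 were not called (adjusted p = 0.0905 and 0.168, limma). In WT these other segments ranged from -1.85 to 0.469, and none was called. Trbj1-1 had 42 and 42 fragments in WT control, 45 and 70 in STAT3-KO control, 88 and 61 in WT with IL-33, and 75 and 66 in STAT3-KO with IL-33. Its rise in WT was 0.65 ± 0.21 (adjusted p = 0.0436, limma), which was lost when any 1 library other than the STAT3-KO controls was left out (adjusted p 0.0569 to 0.22), and in STAT3-KO its difference was 0.27 ± 0.21 (adjusted p = 0.316, limma). Further along the cluster, Trbj1-4 had 42 and 38 fragments in WT control, 44 and 55 in STAT3-KO control, 45 and 19 in WT with IL-33, and 12 and 33 in STAT3-KO with IL-33. Trbj1-6 had 17, 20, 33 and 37 fragments in control in the same order, then 15 and 4, and 9 and 20. Both fell in STAT3-KO, Trbj1-4 with a difference of -1.31 ± 0.41 (adjusted p = 0.0259, limma) and Trbj1-6 with -1.37 ± 0.44 (adjusted p = 0.031, limma), and each call was lost without STAT3-KO control 1 or 2 or STAT3-KO with IL-33 1 (adjusted p up to 0.171 and 0.212). Without STAT3-KO with IL-33 1 the differences themselves were -0.675 and -0.888. On the fragment scale the calls of Trbj1-1, Trbj1-4 and Trbj1-6 were lost (adjusted p = 0.294, 0.12 and 0.159, limma).

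Trbj1-2 and Trbj1-3 also fell in STAT3-KO, on fewer fragments. Trbj1-2 had 19 and 23 fragments in STAT3-KO control and 8 and 7 with IL-33 (-1.44 ± 0.34, adjusted p = 0.00843, limma), and Trbj1-3 had 12 and 14, then 4 and 7 (-1.20 ± 0.32, adjusted p = 0.0132, limma). In WT, Trbj1-2 had 20 and 9 fragments in control and 19 and 9 with IL-33, and Trbj1-3 had 4 and 7, then 12 and 6, and neither was called. The responses of Trbj1-3 differed by -1.67 ± 0.45 (adjusted p = 0.0401, limma), a call lost when any 1 library other than WT control 2 or STAT3-KO with IL-33 2 was left out (adjusted p 0.0641 to 0.144). The STAT3-KO falls were lost without STAT3-KO control 2, without STAT3-KO with IL-33 2 for Trbj1-2 (adjusted p up to 0.0576) and without STAT3-KO with IL-33 1 for Trbj1-3 (adjusted p up to 0.101). All 3 calls of this pair were lost on the fragment scale (adjusted p 0.13 for Trbj1-2, 0.228 and 0.349 for Trbj1-3, limma).

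Trbj1-7, the last of the cluster, had 18 and 14 fragments in WT control, 51 and 53 in STAT3-KO control, 14 and 1 in WT with IL-33, and 22 and 23 in STAT3-KO with IL-33. It lay higher in STAT3-KO than in WT in both conditions, with a difference of 1.66 ± 0.69 in control (adjusted p = 0.513, limma) and 2.27 ± 0.69 with IL-33 (adjusted p = 0.036, limma). The second was lost when any 1 library other than those of WT with IL-33 was left out (adjusted p 0.0529 to 0.142), and on the fragment scale (adjusted p = 0.0983, limma). The difference was 3.67 without the first, which had 14 fragments, and 0.868 without the second, which had 1. Trbd1 had 1 and 2 fragments in WT control and 7 to 10 in each of the other 6 libraries. It rose with IL-33 in WT by 2.51 ± 0.28 (adjusted p = 0.000274, limma), was higher in STAT3-KO control than in WT control by 2.23 ± 0.28 (adjusted p = 0.0146, limma), and its responses differed by -2.56 ± 0.39 (adjusted p = 0.00504, limma). All 3 rest on the WT control libraries, where it was at or below 3 fragments. The call in control was lost when any 1 library other than the WT controls was left out (adjusted p 0.0534 to 0.127), and all 3 were lost on the fragment scale (adjusted p = 0.0715, 0.566 and 0.242, limma).

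Shares of fragments set the clusters side by side. The second cluster made up 29.4%, 23.6%, 23.9% and 23.8% of all beta J fragments in the 4 control libraries and 3.85%, 5.61%, 3.57% and 2.94% in the 4 IL-33 libraries. Their 95% Wilson intervals did not overlap, as the lowest bound in control was 18.2% and the highest bound with IL-33 was 11.7%. Within the first cluster, Trbj1-1 made up 20.5% to 28.2% of fragments in control and 40% to 60.4% with IL-33. Here the intervals overlapped, as those of WT control reached 35.9% and that of STAT3-KO with IL-33 2 began at 32.8%. V segments of the beta locus were nearly absent beside these: WT control had 0 V fragments beside 6789 and 5981 C fragments, which allows up to 0.0442% and 0.0502%, and the IL-33 libraries had 2 to 11.

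**Figure D3:**
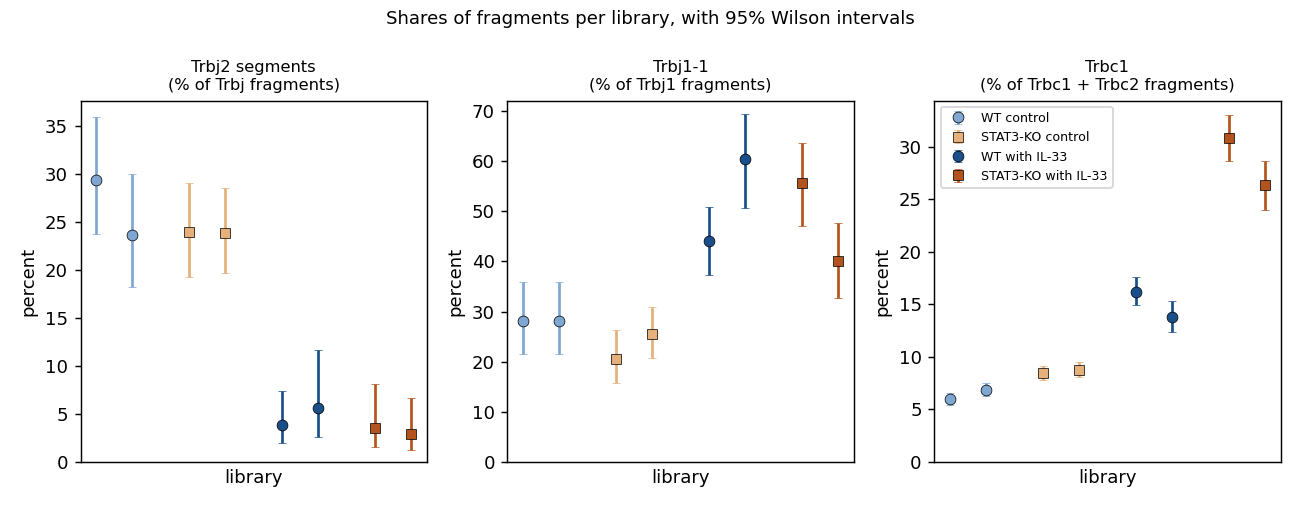
Shares of fragments per library in percent, with 95% Wilson intervals (counting error only), for the second J cluster among all beta J fragments, Trbj1-1 among the first cluster, and Trbc1 among the beta constant genes. By their points, each panel separates the 4 control libraries from the 4 IL-33 libraries, and the Trbc1 panel also separates the genotypes with IL-33. In the Trbj1-1 panel some intervals of control and IL-33 libraries overlap.

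Transcripts of the alpha and delta constant genes were scarce. Trac, the constant gene of the alpha chain, had 60 and 13 fragments in WT control, 36 and 12 in STAT3-KO control, 27 and 33 in WT with IL-33, and 11 and 22 in STAT3-KO with IL-33. Replicates differed as much as groups did, and its IL-33 difference was -0.11 ± 0.46 in WT and -0.28 ± 0.46 in STAT3-KO (adjusted p = 0.866 and 0.626, limma). Trdc, the delta constant gene, had 0 to 19 fragments, at most 0.302 FPKM, and was not tested. The alpha V members reached at most 15 fragments in sum in a library.

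The delta locus had instead a V segment with clear signal and a large fall. Trdv4 (chr14:54074905-54075515) was at 50.3 and 44.6 FPKM in WT control, 37.4 and 40.6 in STAT3-KO control, 5.77 and 4.15 in WT with IL-33, and 0.691 and 1.90 in STAT3-KO with IL-33. This was 375 and 314, 279 and 289, 51 and 30, and 5 and 15 fragments, with no overlap between control and IL-33 or between genotypes. It fell by 3.04 ± 0.25 in WT (adjusted p = 6.22e-05, limma) and by 4.17 ± 0.25 in STAT3-KO (adjusted p = 6.93e-06, limma). With IL-33, STAT3-KO was below WT by -1.42 ± 0.25 (adjusted p = 0.00351, limma), while the difference between the responses missed the threshold (-1.14 ± 0.36, adjusted p = 0.0633, limma). An antisense gene, Gm30275, overlaps Trdv4 and was at 0 to 0.175 FPKM. Trdj2, with 0 to 2 fragments in every library and so under the 3 fragments taken as the limit of a count, was nonetheless called for IL-33 in each genotype, between genotypes with IL-33, and for the difference between responses (-2.28 ± 0.36, adjusted p = 0.006, limma). Without either WT control or either WT with IL-33 library the IL-33 call of Trdj2 in WT was lost, and without any 1 of the 4 IL-33 libraries so was that between genotypes (adjusted p up to 0.0928 and 0.102).

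Of the immunoglobulin members, Ighm showed the clearest change and Igkc the opposite direction. Ighm, the constant gene of the IgM heavy chain (chr12:113418558-113422730), was at 49.7 and 48.4 FPKM in WT control, 47.0 and 48.8 in STAT3-KO control, 3.12 and 2.64 in WT with IL-33, and 2.70 and 2.75 in STAT3-KO with IL-33. Control libraries held 1445 to 1572 fragments and IL-33 libraries 81 to 117. The genotypes lay together in each condition, with a difference on IL-33 of -3.69 ± 0.13 in WT (adjusted p = 7.07e-07, limma) and of -3.72 ± 0.13 in STAT3-KO (adjusted p = 6.22e-07, limma). The difference between these responses was -0.02 ± 0.18 (adjusted p = 0.943, limma), which does not show that they were alike beyond that error. The Igh V members, 19 in all, summed to 8 to 50 fragments per library.

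Igkc, the constant gene of the kappa light chain (chr6:70726435-70726966), had 2 and 0 fragments in WT control, 3 and 4 in STAT3-KO control, 23 and 6 in WT with IL-33, and 51 and 55 in STAT3-KO with IL-33. It was at 5.88 and 5.82 FPKM in the last group and at 2.17 and 0.693 in WT with IL-33. The rise was 1.07 ± 0.30 in WT (adjusted p = 0.0243, limma), lost without WT control 2 or WT with IL-33 1 (adjusted p 0.0992 to 0.127; the difference was 0.614 without WT with IL-33 1), and 2.29 ± 0.30 in STAT3-KO (adjusted p = 0.000437, limma). With IL-33, STAT3-KO was higher by 1.56 ± 0.30 (adjusted p = 0.00513, limma), a call lost on the fragment scale (adjusted p = 0.107, limma), and the difference between the responses was 1.22 ± 0.42 (adjusted p = 0.0867, limma). Igkc lies within a long noncoding gene on the same strand, Gm30211, which was at 0 to 0.0998 FPKM. Igkv14-111 had 16, 14 and 15 fragments in 3 of the IL-33 libraries and 0 in the remaining STAT3-KO with IL-33 library and in all controls. Its rise in WT was 1.71 ± 0.48 (adjusted p = 0.025, limma), and it was lost when any 1 of the 4 WT libraries was left out (adjusted p 0.0805 to 0.121) and on the fragment scale (adjusted p = 0.054, limma). Ighg1, the constant gene of IgG1, was listed at 0 in 6 libraries and had 16 and 24 fragments in STAT3-KO with IL-33, and it was not tested.

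**Figure D4:**
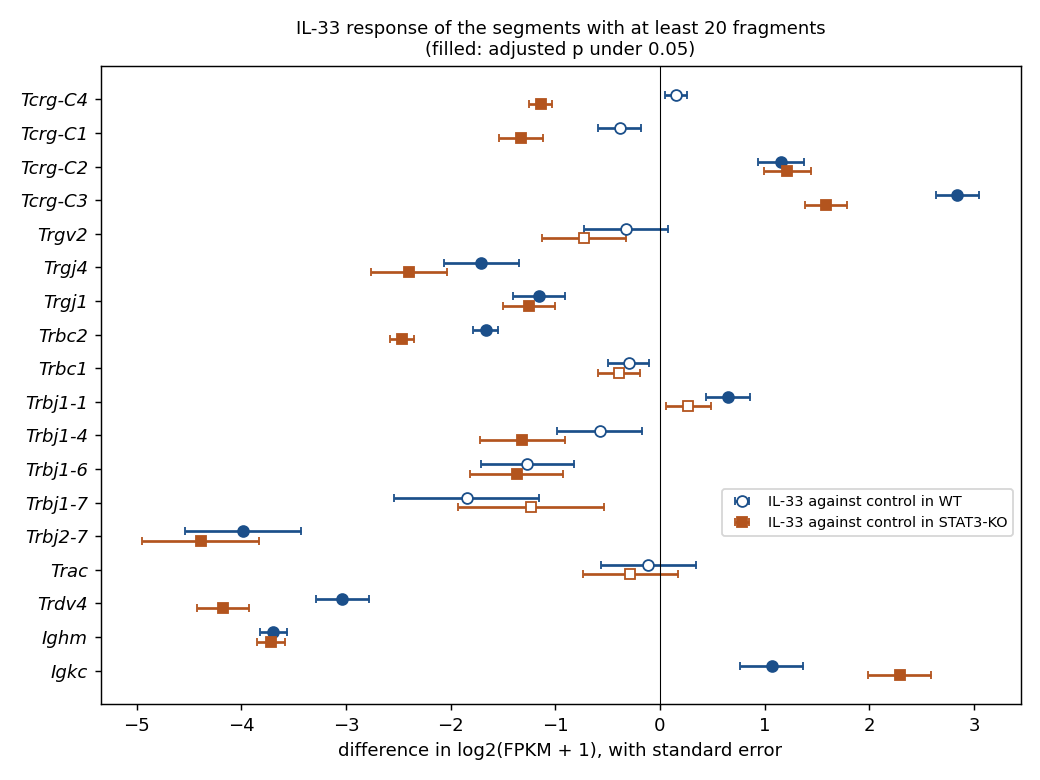
Difference with IL-33 against control, on the log2(FPKM + 1) scale with its standard error, in WT (circles) and STAT3-KO (squares) for the 18 members with at least 20 fragments in both libraries of a group; filled symbols were called. Ighm, Trbc2, Trdv4 and Trbj2-7 are far to the left in both genotypes, Tcrg-C4 is to the left in STAT3-KO alone, and Tcrg-C2, Tcrg-C3 and Igkc are to the right in both.

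The genes that carry a T cell receptor signal inside the cell were measured beside the segments. Of 24 listed genes, which include the CD3 chains and proximal kinases and adaptors, 15 were tested. With IL-33, 1 rose and 6 fell in WT, and 0 rose and 10 fell in STAT3-KO, where 36.1% and 51% of all tested genes were called. The medians were -0.19 and -0.66 (all genes -0.14 and -0.18). Between the genotypes, 2 were lower in STAT3-KO in control and 9 with IL-33, with 0 higher in either. Of all genes, 0.463% and 32.6% were called. In each condition 1 listed gene was higher at an unadjusted p under 0.05 (limma). The responses of 5 differed, all more negative in STAT3-KO, against 15.1% of all genes (8.43% more negative). Lat, an adaptor of the receptor complex, went from a mean of 75.4 FPKM in WT control to 33.5 in WT with IL-33, and from 62.7 to 7.84 in STAT3-KO (-1.16 ± 0.23 and -2.90 ± 0.23, adjusted p = 0.00573 and 3.15e-05, limma). Lck, a kinase that phosphorylates the CD3 chains, was lower in STAT3-KO in control (-1.29 ± 0.17, adjusted p = 0.0204, limma) and with IL-33 (-2.46 ± 0.17, adjusted p = 4.15e-05, limma). The CD3 chains themselves were uneven: Cd3g was at 3.97 to 9.15 FPKM, while Cd3e reached no more than 0.259 and Cd3d no more than 0.332.

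Genes of the joining machinery were counted against all tested genes. Rag1 and Rag2, which start recombination, were not analysed here. Of the 18 listed genes of joining and switching, 14 were tested, of which 4 fell in WT and 7 in STAT3-KO with IL-33 and 0 rose in either, where 36.1% and 51% of all tested genes were called. Their medians were -0.25 and -0.47, against -0.14 and -0.18 for all genes. Lig4, the ligase of end joining, went from means of 3.96 and 3.54 FPKM in control to 0.663 and 0.861 with IL-33 in WT and STAT3-KO (-1.59 ± 0.21 and -1.30 ± 0.21, adjusted p = 0.000836 and 0.00142, limma). Dntt, which adds bases at joints, was at 0 in 6 libraries and at 0.401 and 0.491 FPKM in WT with IL-33. Between genotypes with IL-33, Hmgb2 and Trp53bp1 were lower and Xrcc6 higher in STAT3-KO, where 32.6% of all tested genes were called. In control 0 of the 14 were called, against 0.463% of all genes, and 2 had an unadjusted p under 0.05 (limma).

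Transcription factors that are known to act on these loci were counted in the same way. Of 26 tested, 4 rose and 12 fell with IL-33 in WT, and 5 rose and 19 fell in STAT3-KO, against 36.1% and 51% of all tested genes. Their medians were -0.47 and -1.37, against -0.14 and -0.18 for all genes. With IL-33, 5 were higher and 7 lower in STAT3-KO than in WT (32.6% of all genes were called). In control 0 were called (3 at an unadjusted p under 0.05, limma), against 0.463% of all genes. The responses of 9 differed, 7 of them more negative in STAT3-KO, against 15.1% of all genes (8.43% more negative). Ets1, which binds receptor enhancers, was at a mean of 100.4 FPKM in WT control, 79.7 in STAT3-KO control, 72.8 in WT with IL-33 and 10.4 in STAT3-KO with IL-33 (difference between the responses -2.37 ± 0.18, adjusted p = 0.000279, limma). Ikzf1 (Ikaros) was at means of 81.8, 79.2, 45.0 and 11.4 FPKM in that order, and Id3, an inhibitor of E proteins, at 29.5, 24.0, 37.0 and 2.97. For Ikzf1 the responses differed by -1.87 ± 0.23 and for Id3 by -3.04 ± 0.37 (adjusted p = 0.00221 and 0.00205, limma). Tox, Bcl11b and Rora fell with IL-33 in both genotypes. Bcl11b changed by -1.94 ± 0.18 in WT and -1.26 ± 0.18 in STAT3-KO (adjusted p = 0.000108 and 0.000639, limma). The difference between the responses was called for none of them (adjusted p = 0.0822, 0.102 and 0.868, limma).

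Markers of T cells were low, while those of B cells and plasma cells were uneven. The 10 T cell markers summed to 7.44 to 7.97 FPKM in WT control, 9.34 to 10.6 in STAT3-KO control, 5.06 to 5.68 in WT with IL-33 and 5.13 to 7.63 in STAT3-KO with IL-33, most of it from Cd3g. Cd4 was at 0 in 7 libraries and at 0.112 FPKM in the remaining one, and Cd8a at 0 in 7. Of 10 B cell markers 6 were analysed, and 4 of those were at or below 1 FPKM in every library, with Ebf1 at no more than 0.0519 FPKM. Cd79b, a chain of the B cell receptor complex, was at 7.50 and 6.75 FPKM in WT control, 2.29 and 3.83 in STAT3-KO control, 13.2 and 13.0 in WT with IL-33, and 21.7 and 19.1 in STAT3-KO with IL-33, the order of Igkc among the IL-33 groups. Its rise was 0.80 ± 0.20 in WT and 2.42 ± 0.20 in STAT3-KO (adjusted p = 0.0141 and 3.45e-05, limma). Of the 20 listed B cell receptor and B cell genes 3 were tested, and Cd79b was the 1 called. The sum of the B cell markers was mostly Cd79b and so lay in the same order. It was 7.96 to 8.27 FPKM in WT control and 3.38 to 4.30 in STAT3-KO control. With IL-33 it was 13.4 to 13.9 in WT and 20.6 to 22.6 in STAT3-KO. Cd79a, another marker of the list, did not follow this order. Its means were 0.912 FPKM in WT control, 0.640 in STAT3-KO control, 0.353 in WT with IL-33 and 0.295 in STAT3-KO with IL-33. Of the 8 plasma cell markers 7 were analysed, and their sum went from 42.9 to 43.6 and 52.1 to 52.4 in control to 87.6 to 94.7 and 149.0 to 169.0 with IL-33. The plasma cell list was led by Tnfrsf13b and Irf4, while Jchain was at 0 to 0.958 FPKM and Mzb1 at 0 to 0.555. Sdc1 means were 1.40 and 1.10 FPKM in WT and STAT3-KO control, and 2.40 and 10.65 with IL-33. Those of Derl3 were 0.0633 and 0.534 in control, then 0.990 and 2.64. Prdm1 went another way, with means of 3.175 and 3.245 in control, then 15.2 in WT and 2.57 in STAT3-KO. Among other cells, the mast cell and basophil list summed to 299.0 to 326.0 FPKM in WT control, 111.0 to 140.0 in STAT3-KO control, 127.0 to 155.0 in WT with IL-33 and 7.49 to 8.68 in STAT3-KO with IL-33, led by Cpa3 and, in WT with IL-33, by Mcpt8. The NK cell and ILC1 list summed to 8.78 to 10.5, 26.8 to 29.4, 2.51 to 2.61 and 4.44 to 4.98 in that order. It was led by Tbx21 and Prf1, with Tbx21 at means of 3.58, 20.3, 0.222 and 4.49 FPKM. Of its 7 markers analysed, 5 were at or below 1 FPKM in every library. The ILC3 list was at most 4.52 in any library, and the macrophage and dendritic cell list at most 13.6. Their part in the changes of the segments was not tested, nor was the part of B cells and plasma cells in the changes of Igkc, Ighg1 and Igkv14-111.

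For the constant gene of highest level in each locus, the genes outside the members with the most similar profile over the 8 libraries were taken by Pearson correlation of log2(FPKM + 1), as a description. Those of Ighm included Adgre5 and Ctdsp1 (0.998 and 0.998). Ctdsp1 was at means of 18.7 and 19.5 FPKM in WT and STAT3-KO control and 7.46 and 6.98 with IL-33. Those of Trbc2 were Skap1, Rnf141 and Ino80dos (0.998, 0.997 and 0.996), with Skap1 at 42.3 and 42.1 FPKM in control, 16.5 in WT with IL-33 and 10.1 in STAT3-KO with IL-33. Those of Tcrg-C4 were Id3, Arg1 and Amdhd2 (0.997, 0.988 and 0.986), and those of Igkc were Zc3h12c, Egr3 and Lzic (0.994, 0.990 and 0.989). The 8 libraries fall into 4 groups, so such values mostly describe group means. For Trac, with few fragments, the closest genes were Gm42883, Rbm15 and Slc9a3r1 (0.931, 0.903 and 0.899), and for Trdc they were Wbp11, Ranbp2 and Ap2b1, with a highest value of 0.965.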

How the data were processed

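RNA-seq values of 8 libraries were used. Genes have 1 deposited FPKM value in each library. Per the submitters' processing notes, the authors used Bowtie2, RSEM and GRCm38; versions, annotation, filters and strand setting are not given in the sources used here. FPKM times the merged exon length of GENCODE M21, divided by the step of the values, gave whole fragments: 93.4% to 94.6% of values up to 100 fragments lay within 0.02 of a whole number. All 77 members matched GENCODE M21 by identifier and position. Without a known strand setting, antisense and overlapping genes cannot be told apart.

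Genes with at least 1 FPKM in at least 2 libraries (11877) were fitted on log2(FPKM + 1) with limma 3.58.1 (R 4.3.3), using the 8 libraries together (eBayes with trend; residual degrees of freedom 4, prior 4.46 at the median). P-values were two-sided, Benjamini-Hochberg adjusted over all tested genes of each of the 5 comparisons and called at 0.05. The fit was tested on simulated data with known changes. Alternatives were a pseudocount of 0.1, the fragment scale, other filters, median-of-ratios rescaling, a replicate block, only the libraries compared, and leaving out each library.

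Members with at least 20 fragments in both libraries of a group were named with all values, and others where called. Of each of 4 gene lists up to 4 called genes of smallest p per comparison could be named; a few genes that the rules took are not reported here. Members and lists were chosen with earlier results of these data known. Sequences came from GENCODE M21 transcripts. Wilson intervals and the limit of 3 fragments cover counting error only. Python 3.11.15, pandas 2.3.3 and matplotlib 3.10.9 were used for tables and figures.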

Additional observations from a re-analysis of the deposited data

Results flagged for a closer look

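For 6 members the IL-33 response differed between the genotypes by the test of the difference itself (limma, adjusted over all genes). In log2(FPKM + 1), STAT3-KO minus WT, the difference was -1.3 for Tcrg-C4, -0.8 for Trbc2, -1.26 for Tcrg-C3, -1.67 for Trbj1-3, -2.56 for Trbd1 and -2.28 for Trdj2. Tcrg-C4 and Trbc2 rest on at least 1047 fragments in every library, Trbd1 and Trbj1-3 on 1 to 14, and Trdj2 on 0 to 2. Each group has 2 libraries, too few for a search for single libraries that stand apart.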

How the results depend on the processing

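Of 50 calls of a member in a comparison, 27 were kept in every alternative run that tested them, 23 were lost in at least 1, and 0 reversed. Counted as kept were the calls of Trdj2 for IL-33 in STAT3-KO and for the difference between the responses. The runs that required 10 fragments in 2 libraries did not test Trdj2. The kept ones include the IL-33 falls of Ighm, Trbc2, Trdv4, Trbj2-3 and Trbj2-7 in both genotypes and all 3 calls of Tcrg-C4. On the fragment scale, with at least 10 fragments in 2 libraries, members called went from 16 to 9 for IL-33 in WT, from 1 to 0 between genotypes in control, from 8 to 5 between them with IL-33 and from 6 to 2 (Tcrg-C4 and Trbc2) for the difference between the responses. With no filter on low values they were 0 in control and 15 with IL-33, and with only the 4 libraries compared 0 in control. Leaving out each library in turn gave 10 to 16 for IL-33 in WT (10 without WT control 2), 16 to 21 in STAT3-KO, 0 to 1 and 6 to 9 between genotypes in control and with IL-33, and 3 to 7 for the difference between the responses (3 without STAT3-KO control 1, STAT3-KO control 2 or WT with IL-33 2). Where such a fit left a group with 1 library, that library was assumed to vary like the other groups. Libraries of the same replicate number showed no shared deviation (correlations of deviations -0.062 to 0.045), which does not settle whether they were paired. With a replicate block, 15, 20, 1, 9 and 7 members were called in the order of the report, against 16, 19, 1, 8 and 6. The rise of Trbj1-1 in WT was then lost (adjusted p = 0.0573, limma). Median-of-ratios rescaling changed the IL-33 difference of the median gene from -0.14 to 0 in WT and from -0.18 to -0.01 in STAT3-KO. Depth limits the V, D and most J segments, whose fragments are few.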
